A study of Caenorhabditis elegans with 10 samples.

Results

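Of the *C. elegans* genes listed in the deposited values under the name of a sequenced clone, 136 were at least 2-fold above their 10°C level after 1 day at 4°C and no longer so by day 5. They were chosen by their measured values. A gene entered when its log2 ratio of 4°C day 1 over 10°C was at least 1 (each value as FPKM + 0.1) and its ratio of day 5 over 10°C was below 1. FPKM, fragments per kilobase, corrects for the length of a transcript and the depth of a library. Each gene stood for its transcript with the highest mean FPKM over the 5 conditions, and had to reach an FPKM of 1 in at least 1 of them. That filter was passed by 10509 of 19985 genes, 4173 of them with a sequence name outside 5 clone clusters that were left out (C37A5, F53A9, K08D8, ZK896, and F56D6). Of these 4173, 323 were at least 2-fold above 10°C on day 1, called raised below. The 136 members are the raised genes that were less than 2-fold above 10°C on day 5, and the other 187 were still at least 2-fold above it.

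A sequence name, such as *ZK1055.6*, joins the name of a sequenced genomic clone with a number. A gene keeps it until a mutant, a family, or a function gives it another, so these names do not group genes by what they do. In the current annotation 7 of the 136 have been renamed. The study concerns cooled nematodes and the unfolded protein response of the endoplasmic reticulum. In that pathway the sensor IRE-1 splices the mRNA of the transcription factor XBP-1 in response to misfolded proteins or to disturbed membranes. Roles are given here only where a later name states a family. For the other members no role is given.

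The RNA came from whole wild-type (N2) animals, grown at 20°C to the first day of adulthood. Animals were collected at 20°C, after cooling to 10°C, or from 4°C, which followed the step at 10°C, on day 1, day 3, or day 5. The protocol gives that step as 2 hr and the treatment labels as 3 hr. For the day 5 samples the titles say 5 days and the treatment labels 3 days. All 5 conditions share the strain, and no transgene or mutation is named. Each condition had 2 biological replicates, but the deposited values have 1 column per condition, taken here as the pool of both. Differences can therefore not be set against the spread between replicates. No test was run, and limits given with a value are 95% Wilson limits that cover counting error only. In RNA of whole animals, fewer cells of a type and less RNA per cell cannot be told apart.

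Reads on transcripts numbered between 70741449 and 85103831 per condition, a read counting for every transcript it overlaps. Of 15 tissue markers fixed as a list, 12 had an FPKM of at least 1 in all 5 conditions, among them markers of intestine, muscle, pharynx, neurons, hypodermis, and germ line. The markers *spe-9* (sperm) and *unc-122* (coelomocytes) were below 1 throughout. Of the 13 that passed the filter, 11 were lower on day 5 than at 10°C and 2 were higher. Over all genes the median log2 ratio was -0.10, and 15.9% were at least 2-fold lower. Among the markers 4 were at least 2-fold lower, *ges-1*, *elt-2*, and *vit-6* of the intestine and *unc-54* of muscle. The markers' log2 ratios lay between -1.76 for *elt-2* and 0.56 for *snb-1* (neurons). On day 3 some were higher than at 10°C, such as *rab-3* (neurons) with a log2 ratio of 0.72 and *myo-2* (pharynx) with 0.65. The germ line marker *glh-1* had 0.03 on day 5. The body wall muscle myosin *unc-54* had an FPKM of 78.7 at 20°C, 76.8 at 10°C, 76.5 on day 1, 67.0 on day 3, and 34.4 on day 5, and the intestinal esterase *ges-1* had 8.49, 7.33, 5.49, 2.72, and 2.17. Their part in the lower day 5 values of the members was not tested.

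The choice fixed the members' values on day 1 and day 5, so these are given as a description. The median FPKM of the 136 members was 1.22 at 20°C, 2.00 at 10°C, 5.40 on day 1, 3.53 on day 3, and 2.03 on day 5. The median log2 ratio over 10°C was 1.38 on day 1, 1.05 on day 3, and 0.26 on day 5. Over all 10509 genes the medians were -0.09, -0.13, and -0.10. On day 1, 18 members were at least 4-fold above 10°C. Among all genes, 5.49% were raised on day 1 and 2.54% met both conditions of the rule, under any name. The members were mostly weakly expressed. The median of their mean FPKM was 3.12, against 11.4 over all genes, 44 had an FPKM of at least 10 on day 1 and 23 had less than 2. At both 20°C and 10°C, 34 members were below the filter's FPKM of 1, so they passed it only through their values at 4°C. Behind the 10°C values stood a median of 133 reads and a lowest count of 5, with 15 members under 30 reads. The counting limits of day 1 and 10°C overlapped for 1 member, and those of day 1 and day 5 for 14.

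Day 3 entered the rule only through the filter and the choice of transcript, and it divided the members. Some members reached an FPKM of 1 only on day 3, so by construction these were at least 2-fold above 10°C that day. On day 3, 74 members (54.4%) were still at least 2-fold above 10°C, and 62 were not. Of all genes, 6.39% were at least 2-fold above 10°C on day 3. This ratio shares its 10°C value with the rule. The 74 that held include 35 members whose highest value was on day 3 and 39 whose highest value was on day 1. The other 62 had to be highest on day 1, because they were below 2-fold on both later days. With the 39 this makes 101 members with a day 1 peak. Members that held had a median log2 ratio over 10°C of 1.5 on day 1, 1.40 on day 3, and 0.55 on day 5. Members that did not had medians of 1.26, 0.42, and -0.33. Of these 62, 13 were below their 10°C value by day 3.

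**Figure D1:**
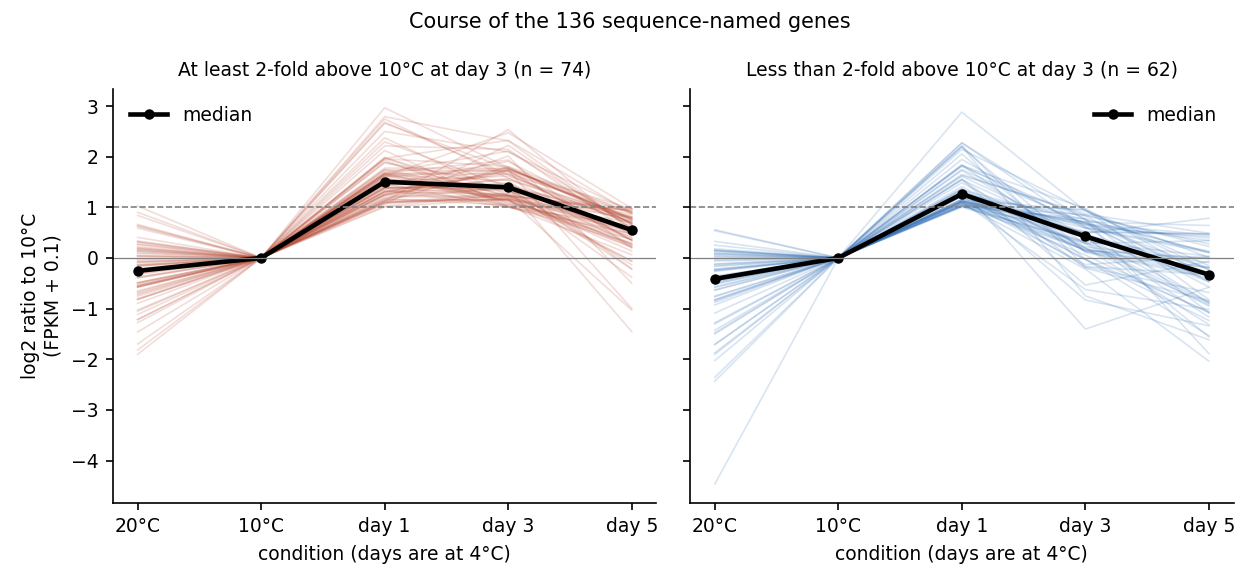
Log2 ratio to 10°C (vertical axis, FPKM + 0.1) of each member in the 5 conditions (horizontal axis), in thin lines, with the median as a thick line; left, the 74 members at least 2-fold above 10°C on day 3 and right, the other 62. The dashed line is the 2-fold threshold. The day 3 ratio sets which panel a member is in, and the day 1 ratio shares its 10°C value. On day 1 the median ratios are 1.5 on the left and 1.26 on the right. In FPKM the medians are 4.67 and 6.39 on day 1, and 1.36 and 2.23 at 10°C.

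Neither day 3 nor 20°C enters the ratios of the rule. Between these columns 89 of 136 members (65.4%) were at least 2-fold above 20°C on day 3, against 7.46% of all genes, and 129 had a higher value on day 3 than at 20°C. The 34 members that passed the filter only through 4°C had to be higher than at 20°C on at least 1 day there. Among genes with an FPKM of at least 1 at 20°C or 10°C, the share was 63.7% (65 of 102 members), against 4.78% of all 10001 such genes. The members' median log2 ratio of day 3 over 20°C was 1.5, ranging between -0.73 for *Y119D3B.21* and 3.72 for *C49G7.7*. Over all genes it was -0.14. The sequence-named genes raised through day 5 lay further from 20°C, with a median of 2.7 and 181 of 187 at least 2-fold above it. On day 5, 34 members (25%) were at least 2-fold above 20°C, compared with 5.40% of all genes, while 35 members were below their 20°C value. Without the 34 the share was 25.5% (26 of 102), compared with 3.18%. The rule used the day 5 value, so nothing is read from these shares.

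**Figure D2:**
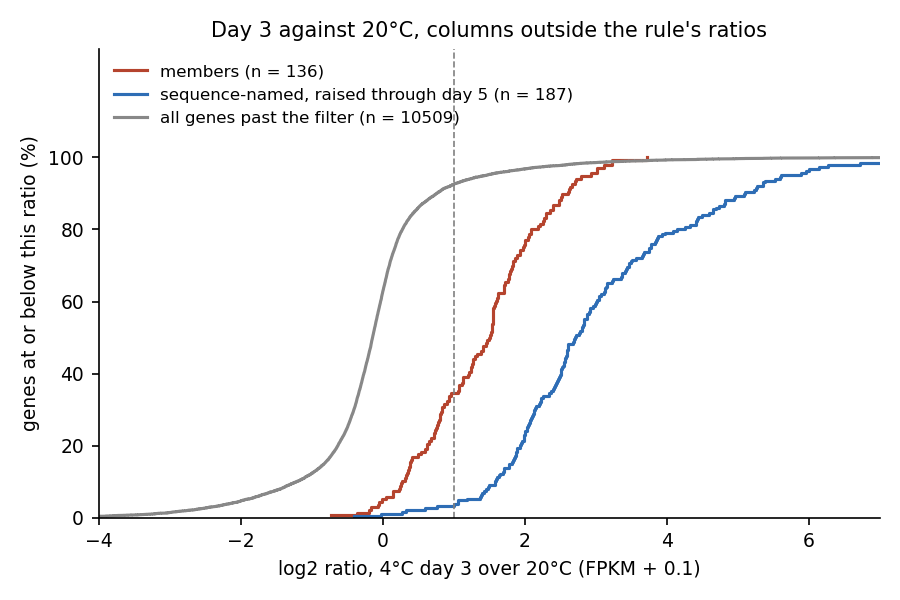
Share of genes (vertical axis, percent) at or below each log2 ratio of day 3 over 20°C (horizontal axis, FPKM + 0.1) for the 136 members, the 187 sequence-named genes raised through day 5, and all 10509 genes past the filter. The members' curve lies to the right of that of all genes and to the left of the longer-lasting genes; 48 genes lie beyond the axis.

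Some members already differed between 10°C and 20°C. Of the 136, 24 (17.6%) were at least 2-fold higher at 10°C than at 20°C, against 1.27% of all genes. Without the 34 members named above it was 20 of 102 (19.6%), against 1.03%. The rule used the 10°C value. The share was 12.8% (24 of 187) for sequence-named genes raised through day 5. Another 40 members were lower at 10°C than at 20°C. The clearest case was *C49G7.7*, on chromosome V. It had an FPKM of 0.126 (limits 0.0683 to 0.231) at 20°C, 4.88 at 10°C, 22.9 on day 1, 2.87 on day 3, and 1.53 on day 5. Its log2 ratio of 10°C over 20°C, 4.46, was the highest of all 10509 genes. *T24E12.5*, which the current annotation names *rcd-1*, had 0.317, 2.15, 4.64, 1.84, and 0.449 in the same order. *T24C4.4*, now *clc-19* after the claudins, proteins of cell junctions, had 1.08, 5.96, 18.6, 10.97, and 8.39. All of its exon bases also lie in *clc-20* on the opposite strand, a gene not analysed here.

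The largest ratio on day 1 belonged to a gene that lies next to another member. *ZK1055.6* (chromosome V, bases 6599189 to 6602606, minus strand) had an FPKM of 5.59 at 20°C, 9.96 at 10°C, 78.4 on day 1, 34.6 on day 3, and 16.1 on day 5, a log2 ratio of 2.96 (counting limits 2.71 to 3.22) on day 1. These are values of a transcript of 162 bases, with 135 reads at 10°C. The 3 other transcripts of *ZK1055.6* past the filter had day 1 ratios between 2.69 and 2.73. That is below the ratios of *C44H9.4* (2.88), *F56C3.9* (2.79), and *R09A1.3* (2.74), so the first rank rests on the short transcript. The neighbour *ZK1055.7* lies 113 bases away on the same strand and had 4.50, 9.27, 59.0, 31.7, and 15.8. Over 10°C the pair had log2 ratios of 1.79 and 1.76 on day 3 and of 0.69 and 0.76 on day 5. *C44H9.4*, of 3569 bases and therefore well counted (602 reads at 10°C and 4696 on day 1), had 1.07, 2.02, 15.5, 3.93, and 1.80, so that its day 5 value was slightly below that at 10°C. *R09A1.3* had 1.10, 2.14, 14.9, 6.60, and 2.76. *PDB1.1* had 7.15, 8.64, 45.1, 20.5, and 16.5, and stood just inside the day 5 threshold with a ratio of 0.93. The other genes among the 10 largest ratios were weakly expressed. *F56C3.9*, *Y43F8B.14*, *F55C12.19*, *F59B2.13*, and *F09F9.3* had FPKM values of 2.03, 2.31, 1.49, 1.81, and 2.12 on day 1, against 0.208, 0.275, 0.182, 0.290, and 0.358 at 10°C. For *F55C12.19* only 6 reads stood behind the 10°C value, and the limits of its day 1 ratio of 2.50 ran between 1.66 and 3.33.

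By level, *Y119D3B.21* stood far above the other members. It had an FPKM of 540 at 20°C, 502 at 10°C, 1086 on day 1, 326 on day 3, and 248 on day 5. Its value on day 1 was the highest of the 4173 sequence-named genes, and its values on day 3 and day 5 were below both starting temperatures. The gene is annotated as a single exon of 201 bases on chromosome III (bases 1215000 to 1215200, plus strand). *F54C9.3*, likewise a single exon, of 246 bases, had 48.3, 43.5, 112, 49.7, and 34.5, a day 1 value between values that resemble each other. *C06B3.6* had 11, 29.7, 70.5, 16.7, and 11.7, ending near its 20°C value after being higher at 10°C. *C18B2.4* had 14.8, 21.4, 60.1, 53.3, and 37.6, with all 3 days at 4°C above both starting temperatures. *K01C8.1*, named *srdh-1* in the current annotation, had 25.5, 24.5, 54.4, 22.4, and 24.9 and was close to its starting value in every condition but day 1. In *B0205.13* the value on day 3 was the lowest of the 3 cold days, with 4.78, 19.8, 51.1, 7.40, and 13.2 across the 5 conditions.

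**Figure D3:**
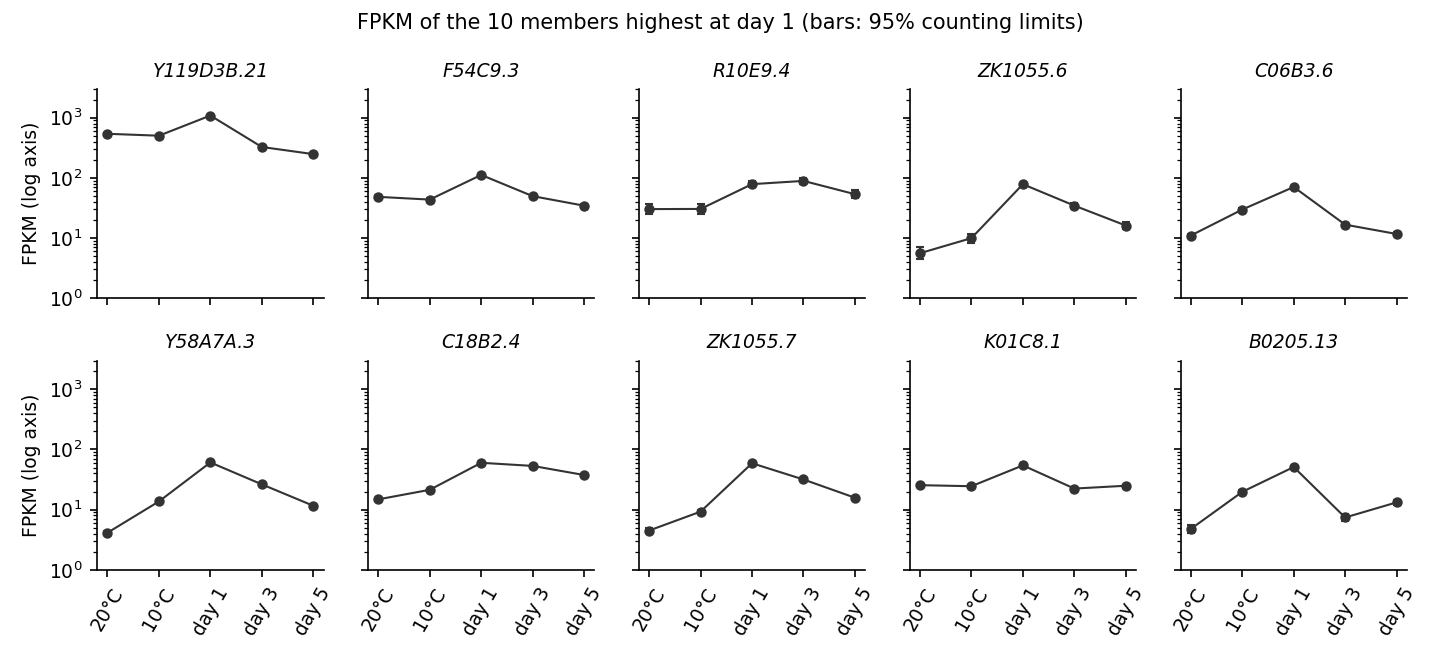
FPKM (vertical axis, logarithmic) of the 10 members highest on day 1 in the 5 conditions (horizontal axis, days at 4°C); bars are 95% counting limits and carry no replicate error. *Y119D3B.21* is highest, at 1086 on day 1, and all 10 are higher on day 1 than at 10°C.

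Late peaks were found in the members with the highest ratios on day 3. *Y77E11A.14*, now *spp-31* after the saposin-like proteins, had an FPKM of 1.14 at 20°C, 1.02 at 10°C, 2.34 on day 1, 6.41 on day 3, and 1.51 on day 5. *C07E3.3* had 0.705, 1.26, 4.05, 7.45, and 2.58. *W02D9.10*, now *dpsm-1*, had 1.21, 1.09, 4.56, 5.85, and 2.1. *K06A9.1*, the longest transcript of the members with 5409 bases, had 0.435, 0.462, 1.08, 2.52, and 0.737. These 4 peaked on day 3 and came down by day 5. The other of the 5 largest day 3 ratios was that of *F56C3.9*, which had its peak on day 1.

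Some members went well below their starting point. By day 5, 53 members were below their 10°C value, and 15 (11%) were at least 2-fold below it. The share among all genes was 15.9%, and because the rule capped the day 5 ratio nothing is read from either. The lowest day 5 ratio, -2.04, was that of *T24E12.5*. *F15E6.3* had an FPKM of 6.76 at 20°C, 11.1 at 10°C, 25.2 on day 1, 29 on day 3, and 3.97 on day 5, so that its decline lay between day 3 and day 5. *C50F4.8* had 3.36, 3.27, 13.9, 3.21, and 1.07. *ZK6.8* had 0.421, 0.625, 2.01, 0.876, and 0.146, and *R07A4.2* had 0.283, 0.475, 1.51, 0.559, and 0.131. The 10°C value of *R07A4.2* rests on 30 reads.

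The decline took place in both intervals. Between day 1 and day 3, 37 members (27.2%) were lower by at least 2-fold on day 3, against 4.65% of all genes. Between day 3 and day 5, 55 members (40.4%) were lower by at least 2-fold on day 5, against 4.98% of all genes, with a median log2 ratio of -0.88. The rule required low values on day 5 relative to day 1, and both shares follow in part from it. The ratio also varied with level. When all genes were ordered by mean FPKM into 10 bins of equal size, in the lowest bin the median log2 ratio of day 5 over day 3 was -0.29, and in the highest bin it was 0.19. Of the 136 members, 100 lay in the lowest 4 bins.

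**Figure D4:**
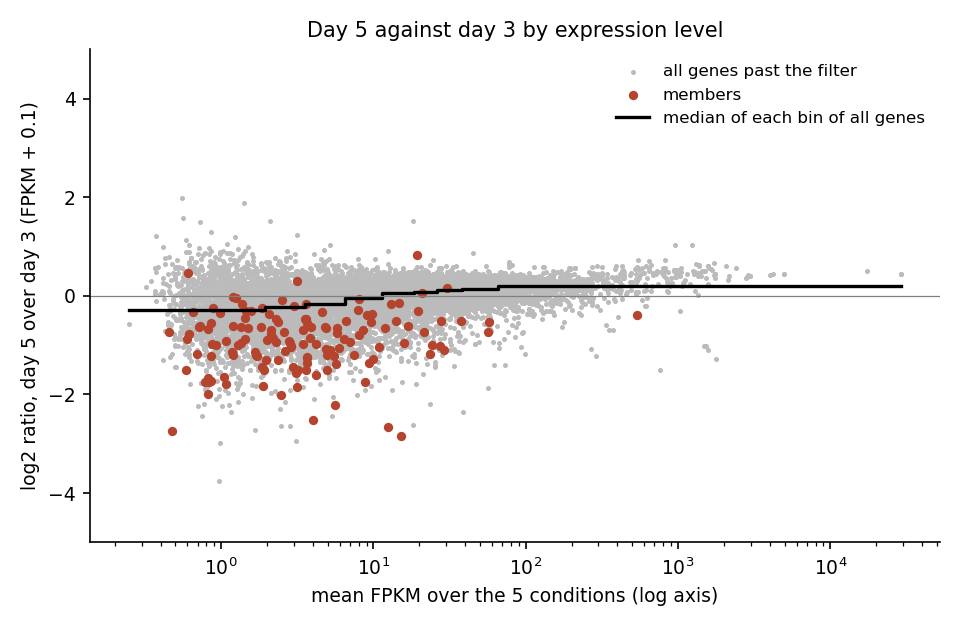
Log2 ratio of day 5 over day 3 (vertical axis, FPKM + 0.1) against mean FPKM over the 5 conditions (horizontal axis, logarithmic) for the 136 members and all 10509 genes past the filter. The step line is the median of each of the 10 bins of all genes, between -0.30 and 0.19. The members' median is -0.88, and the rule's cap on day 5 favours such low values.

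The course was also found outside the sequence-named set. Of the 254 other raised genes, 131 were below 2-fold on day 5. Genes of the 5 clone clusters make up 13 of the 254 and 2 of the 131, and the rest have other names. On day 3, 72 of these 131 (55.0%) held at least 2-fold above 10°C and 86 (65.6%) were at least 2-fold above 20°C, beside 54.4% and 65.4% of the members. Of the 323 raised sequence-named genes the members were 42.1%.

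All 136 members are annotated as protein coding, with a median transcript length of 1008 bases, against 1001 over the sequence-named genes past the filter and 1220 over all genes. The rule used position only in leaving out the 5 clone clusters, which the sequence-named genes compared here leave out too. On chromosome V lay 41 members (30.1%), against 19.5% of all sequence-named genes past the filter, and on chromosome I lay 3 (2.21%), against 15.6%. Some members are neighbours or share exons, as described below. They are therefore not independent draws, and no limits are given for these shares. Sequence-named genes raised through day 5 had 34.2% on V and 8.56% on I. Chromosome X held 19.9% of the members, compared with 14.7%. Chromosomes II, III, and IV held 14.7%, 15.4%, and 17.6% of the members, against 17.5%, 16.6%, and 16.1%.

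Several members are neighbours. Within 10 kb of each other lay 12 pairs, made of 21 members, of which 11 had no other protein-coding gene between them and 10 of those lay on the same strand. In 4 pairs, all among those 10, the exons overlap, so these share bases and are described below. How often other genes form such pairs was not analysed here, so nothing is read from the counts. Besides *ZK1055.6* and *ZK1055.7*, the pair *Y58A7A.3* and *Y58A7A.4* on chromosome V had matching courses. *Y58A7A.3* had an FPKM of 4.13 at 20°C, 13.7 at 10°C, 60.9 on day 1, 26.3 on day 3, and 11.6 on day 5, and *Y58A7A.4*, 1084 bases away, had 2.7, 8.98, 39.4, 18.4, and 9.39. Both had a log2 ratio of 1.70 at 10°C over 20°C, and ratios on day 1 over 10°C of 2.15 and 2.12. *C49A9.5* and *C49A9.6* had day 1 ratios of 1.10 and 1.09 and day 5 ratios of -0.92 and -1.17. *F53C11.1* and *F20G2.5* had day 1 ratios of 1.57 and 1.44, and *Y102A11A.3* and *Y102A11A.2* had 1.39 and 1.31. *K06A9.2* and *K06A9.1* differed more, with 1.65 and 1.07, and so did *M04C3.1* and *Y43F8B.14*, with 1.41 and 2.68 and 2 genes between them. *F35C11.6* and *K01C8.1*, on opposite strands, had 1.34 and 1.15. Where copies resemble each other in sequence, a read can be assigned to both. How alike these pairs are was not analysed here.

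Not every member is an independent measurement. The exons of 37 members overlap those of another gene, by at least 10% of their bases in 15 members and at least 50% in 9. Whether strand was used in counting is not given in the sources used here. *R10E9.4*, of 42 bases, lies wholly within exon bases of *msi-1*, the nematode Musashi RNA-binding protein, on the same strand. It had an FPKM of 30.2 at 20°C, 30.4 at 10°C, 78.6 on day 1, 89.0 on day 3, and 53.5 on day 5, and *msi-1* had 9.44, 9.54, 29.96, 27.6, and 17.7. *B0361.14*, also of 42 bases, lies within the member *B0361.9*. *H40L08.2*, *H40L08.7*, and *H40L08.8* share nearly all of their exon bases, and their day 1 ratios were 1.02, 1.09, and 1.24. *F55C12.19* shares 55.98% of its exon bases with *tag-234*, whose day 1 ratio was 1.78. *F17E9.2* shares 97.3% with *col-116*, a collagen gene with a day 1 ratio of 1.25. In other cases the overlapping gene did not move with the member, also on the same strand. *Y47D9A.7*, of 105 bases and with a day 1 ratio of 1.26, lies wholly within exon bases of *Y47D9A.1* on the same strand. The day 1 ratio of *Y47D9A.1* was -0.29. *C50F4.8* shares 12.5% with *eif-2Bdelta* on the opposite strand, which had a day 1 ratio of -0.24, and *Y50D4A.10* shares 26.1% with *Y50D4A.1* on the opposite strand, which had -0.37. In all, 7 of the 15 overlapped a gene raised on day 1, and 4 of these 7 overlapped another member.

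Most other transcripts of these genes met the rule too. Other transcripts past the filter were listed for 50 members, 139 in all. Of these, 130 were raised on day 1 and 129 had the same course, and for 45 of the 50 members all of them were raised. Transcripts of a gene share reads, so these are not separate measurements.

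Genes that depend on IRE-1 were looked up in 3 published lists. The first holds genes raised in the cold in wild-type animals but not in *ire-1* mutants, under another cooling protocol. A rise in the cold was thus part of how it was chosen. For that protocol the study describes IRE-1 signalling as independent of *xbp-1* processing. Of its 40 genes, 31 passed the filter, and 18 (58.1%) were raised on day 1. Of these 18, 8 were sequence-named, 3 of them members (*C23H4.6*, *T24C4.4*, and *ZK418.7*) and 5 raised through day 5. Of genes induced by lipid stress through IRE-1, 126 passed the filter and 34 (27%) were raised on day 1, 28 of them sequence-named, with 11 members and 17 raised through day 5. Of genes induced by tunicamycin, a blocker of protein glycosylation, through IRE-1, 121 passed the filter and 13 (10.7%) were raised on day 1. Of these 13, 2 were sequence-named, both raised through day 5, and 5 others met both conditions of the rule. Of all genes, 5.49% were raised on day 1. The members were 37.5% (3 of 8) and 39.3% (11 of 28) of the raised sequence-named genes of the first and second list, beside 42.1% of all raised sequence-named genes. The median log2 ratio of day 1 over 10°C was 1.37 for the first list, 0.48 for the second, and 0.09 for the third, beside -0.09 for all genes.

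The 14 members on these lists had unlike courses. *C23H4.6* had an FPKM of 2.26 at 20°C, 4.08 at 10°C, 12.2 on day 1, 3.54 on day 3, and 2.23 on day 5, and was back at its 20°C value. *ZK418.7* had 0.891, 2.35, 5.94, 3.31, and 1.66. From the lipid stress list, *M04C3.1* had 2.7, 2.72, 7.38, 2.98, and 2.11, and *C34H4.1* had 1.12, 1.00, 2.54, 0.980, and 0.368. Both were near their 20°C value by day 3. *C17H11.6* had 3.77, 4.24, 10.7, 13.6, and 7.87, and *C18H7.11* had 0.811, 1.87, 5.32, 7.30, and 3.05, with their peaks on day 3. *K10G4.3* had 0.329, 1.09, 3.56, 1.54, and 0.949. *C53C11.5* and the neighbours *F53C11.1* and *F20G2.5* had day 3 ratios over 10°C of 1.13, 1.19, and 1.47 and day 5 ratios of 0.37, 0.14, and 0.26. *C44H9.4*, *C50F4.8*, and *B0205.13*, described above, are the other members on that list.

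Reporters of other stress responses were looked up as well. Of 25 on the list, 17 passed the filter and 10 were raised on day 1. Among all genes, 5.49% were raised on day 1. Of the 10, 8 were still at least 2-fold above 10°C on day 5. These 8 include *lips-11*, *zip-10*, and *numr-1*. The study already describes a rise of these genes in the cold, so they were not an independent choice. *F44E5.4* and *F44E5.5*, also among the 8, had 1409 and 1407 reads on day 1 and may not be separate measurements. Nothing is therefore read from the count of raised reporters. The other 2 of the 10 were *irg-1*, a reporter of intestinal immunity, and *sod-3*, a superoxide dismutase read as a target of DAF-16. They were 11.8% of the 17, beside 2.54% of all genes. This share depends on the same choice of reporters, so nothing is read from it either. *sod-3* stood just inside the day 1 threshold, with a log2 ratio of 1.00. Other listed reporters of these responses did not share the course. For intestinal immunity, *irg-4* had log2 ratios over 10°C of -0.28 on day 1 and -1.74 on day 5. *irg-5*, which did not pass the filter, had -0.69 and -0.60. For DAF-16, *mtl-1* had 2.89 and 4.18. *irg-1* had an FPKM of 0.503 at 20°C, 0.653 at 10°C, 3.21 on day 1, 1.03 on day 3, and 0.773 on day 5, and *sod-3* had 0.871, 0.841, 1.79, 1.83, and 0.915. The chaperone *hsp-4*, the usual reporter of the unfolded protein response of the endoplasmic reticulum, was not raised by the 2-fold rule, with 162, 180, 281, 145, and 157, and was highest on day 1.

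The thresholds of the rule divide values that differ little. Just inside the day 1 threshold were *C14B1.3*, *C54C6.7*, *R07G3.8*, *H40L08.2*, and *F52B11.5*, with ratios of 1.00, 1.01, 1.02, 1.02, and 1.02. Just outside were *F19G12.8*, *F35E12.10*, and *C32E12.4*, all with ratios between 0.992 and 0.997. At the day 5 threshold, *C07E3.3*, *K07H8.12*, *Y50D4A.10*, *C25H3.10*, and *PDB1.1* were members with ratios of 0.98, 0.98, 0.97, 0.96, and 0.93, while *Y32F6B.9*, *T01G1.2*, and *C17B7.12* were not, with 1.02, 1.02, and 1.03.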

How the data were processed

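Total RNA of whole animals was sequenced after preparation with the ScriptSeq v2 kit. The authors processed the reads with ORFik, trimmed them with fastp (0.23.4), mapped them with STAR (2.7.11b) to WBcel235, estimated expression with DESeq2 (1.42.1), and deposited FPKM values per transcript. Which annotation release was used, whether strand was used in counting, and how replicates were pooled are not given in the sources used here. The deposited FPKM values hold 1 column per condition, and 1 further column, of no sample of the series, was not used. Multiplied by exon length (Ensembl release 115), 100% of the values were whole reads within 0.01 reads. From the reads came Wilson limits (95%), which hold counting error alone.

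The members and gene lists were chosen with earlier results of these data known. Changes are log2 ratios of FPKM + 0.1, which understates those of low genes. Called means past 2-fold. A limma fit planned for replicate columns was not run, nor were the planned searches of promoter motifs and comparisons of protein sequence, for which no sequences were used here.

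The genes named were the members with the 10 largest day 1 ratios, the 10 highest FPKM values at day 1, the 8 lowest day 5 ratios, and the 5 largest day 3 ratios. Added to these were the 5 just inside each threshold with the 3 just outside it, those on the IRE-1 lists, and those in adjacent pairs. F17E9.2, tag-234, msi-1, and the other overlapping genes were named after their values were seen. Alternatives were other pseudocounts (1 and 0.01), filters (none and an FPKM of 5), thresholds (1.5-fold and 3-fold), centring, sums over transcripts, 20°C as the base, and counting limits that do not overlap. The rule was tested on simulated counts with a rise on both day 1 and day 3 that was larger than most members showed. Genes as weakly expressed as the weakest members, and rises that ended by day 3, were not simulated. The tools were pandas 2.3.3, numpy 2.4.6, and scipy 1.17.1 under Python 3.11.15, with plots by matplotlib 3.10.9.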

Additional observations from a re-analysis of the deposited data

How the results depend on the processing

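No paired analysis was possible because the columns carry no replicate number. For the same reason no replicate could be left out. With a pseudocount of 1, 99 genes met the rule, 79 of them among the 136. They made up 50.5% of the raised sequence-named genes, 45 held at least 2-fold above 10°C on day 3, and 56 and 21 were at least 2-fold above 20°C on day 3 and day 5, with a median log2 ratio of day 3 over 20°C of 1.19. Without a filter that median was 1.13. A filter at an FPKM of 5 left 74 members, of which 38 held on day 3, and 48 and 22 were at least 2-fold above 20°C on day 3 and day 5, with 74 genes outside the sequence-named set on the same course. At 1.5-fold the rule found 221 genes (235 outside that set), with median log2 ratios over 10°C of 0.96 on day 1, 0.64 on day 3, and -0.0023 on day 5, and of 0.83 for day 3 over 20°C. At 3-fold these values were 76 genes (71 outside it) and medians of 1.96, 1.55, 0.71, and 2.05. With 20°C as the base of the rule, 152 genes were found, 87 of them among the 136. Of the 152, 48 were at least 2-fold above 10°C on day 3, the medians over 10°C were 1.10, 0.62, and -0.12, and that of day 3 over 20°C was 1.01. The count on day 5 over 20°C is then 0 by construction.

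The following alternatives were chosen after seeing the data. Centring within 10 bins of mean FPKM gave 133 members, 104 of them shared, or 35.2% of the raised sequence-named genes. With day 3 in place of day 5 in the rule, 64 genes were found (61 outside the set), 19.8% of those raised, of which 24 and 10 were at least 2-fold above 20°C on day 3 and day 5. Their medians over 10°C were 0.44 on day 3 and -0.32 on day 5, and that of day 3 over 20°C was 0.79. The cause of these shifts was not tested, other than that a stricter filter or threshold keeps fewer genes. With an FPKM of at least 1 required at 20°C or 10°C, 102 members were left, 56.4% of the raised sequence-named genes. The other results stayed within a tolerance of 1.5 times for counts. For medians the tolerance was the typical half-width of the counting limits of single members, which is looser than the error of a median. So the median log2 ratio of 10°C over 20°C counted as unchanged at 0.13 without a filter and 0.18 at 1.5-fold, beside 0.32 in the members. Members with transcripts of at least 200 bases and under 10% of shared exon bases numbered 116. Every result stayed within this tolerance with a pseudocount of 0.01, with ratios centred on the median of all genes, with sums over transcripts, with counting limits that do not overlap, and in these 116 members. Of the 58 members named by the rule, all 58 were above 10°C on day 1 under the 5 alternatives run for single genes, and 38 were at least 2-fold above it under each. The counting limits are the only error these values allow, and for the 15 members under 30 reads at 10°C they are wide.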
